A study of Mus musculus with 54 samples.

Results

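The GIMAP family was followed as 8 genes, *Gimap1*, *Gimap3*, *Gimap4*, *Gimap5*, *Gimap6*, *Gimap7*, *Gimap8*, and *Gimap9*, taken by symbol from a list of family members. Each was present once in both count tables, as 8 of the 55385 genes listed, and all 8 passed the filter of at least 1 read in total in both tables. No member was near the limit of detection, as the lowest count of a member in any library was 495 in the CD5/CD6 experiment and 477 in the LAT experiment, both for *Gimap7*.

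RNA was sequenced from naive CD4+ T cells of C57BL/6 mice aged 8 to 10 wk in 2 experiments with 3 samples per condition and 54 samples in all, to ask how T cells lacking the adaptor LAT, or the surface receptors CD5 and CD6, respond to stimulation. In the CD5/CD6 experiment (36 samples), the 4 genotypes were WT, *Cd5*-/-, *Cd6*-/-, and the double mutant *Cd5*-/-*Cd6*-/-, and the cells were enriched magnetically from lymph nodes pooled with spleens, the source in both experiments. In the LAT experiment (18 samples), the WT cells (human DTR+) and the *Lat*-/- cells (human DTR-) were both obtained by FACS from mice that carried *Lat* fl-dtr and maT-Cre, a Cre active in T cells, so that the WT cells there carried both transgenic alleles too. *Cd6*-/- mice and the double mutant were made with CRISPR/Cas9, and the double mutant lacks 1 stretch of the genome that spans both genes. Cells were used fresh (0 h) or after 4 h or 20 h on plate-bound anti-CD3 (3 µg/ml) with anti-CD28 (1 µg/ml), in all genotypes. The sample labels state that RNA of the 0 h cells was taken straight after purification, so time in culture and stimulation cannot be told apart in a comparison with 0 h. Nothing in the labels says that the 3 samples of a condition came from separate animals, so p-values measure the spread between these samples, which may be partly technical.

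GIMAP proteins (GTPases of immunity-associated proteins) are small GTP-binding proteins found mainly in lymphocytes, where several members sit on lysosomal or other internal membranes. They are best known for their part in the survival of resting lymphocytes: loss of GIMAP5 leads to lymphopenia in mice and rats, and loss of GIMAP1 depletes mature T and B cells. GIMAP3 is the closest relative of GIMAP5, GIMAP4 has been linked to T cell death, GIMAP6 binds the autophagy protein GABARAPL2, GIMAP7 hydrolyzes GTP as a dimer, and GIMAP8 carries more than a single GTPase domain.

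The 8 genes form a cluster on mouse chromosome 6, at chr6:48647234-48770851 (GRCm38), a stretch of 123.618 kb. From its start to its end the order is *Gimap8*, *Gimap9*, *Gimap4*, *Gimap6*, *Gimap7*, *Gimap1*, *Gimap5*, and *Gimap3*, and *Gimap6* and *Gimap3* are read from the minus strand and the other members from the plus strand. Every member is annotated as a protein-coding gene in GENCODE M21. Counting may not be fully separate for 4 members. *Gm28053*, a readthrough gene on the same strand, shares 81 exonic bases with *Gimap7*, 198 with *Gimap1*, and 153 with *Gimap5*, and *Gimap1os* covers 1107 exonic bases of *Gimap1* on the opposite strand. Of the 50-base stretches of each gene, the length of 1 read, 8.15% in *Gimap3* and 6.84% in *Gimap5* also occur in another annotated gene on the strand of the transcript, against 5.94% in *Gimap1*, 1.39% in *Gimap7*, 0.0565% in *Gimap6*, and 0 in *Gimap4*, *Gimap8*, and *Gimap9*. On the opposite strand the share is 33.9% in *Gimap1* and at most 0.316% in the other members, which matters only if strand was not used in counting.

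The longest run that *Gimap3* and *Gimap5* have in common is 140 bases of coding sequence, identical in both, in coding frames of 903 and 924 bases. It is shown because a read from within it cannot be assigned to either gene. It lies at chr6:48765681-48765820 on the minus strand in *Gimap3* and at chr6:48752684-48752823 on the plus strand in *Gimap5*, and reads in the direction of transcription:
Gimap3 and Gimap5: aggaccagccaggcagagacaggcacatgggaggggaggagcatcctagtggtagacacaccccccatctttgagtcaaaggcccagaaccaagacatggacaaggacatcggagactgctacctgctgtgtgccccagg

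Promoter windows of 250 bases before the RefSeq start (GRCm38.p6) were read for all 8 members, 1 for each gene but *Gimap8*, which has 2 overlapping windows. The windows of *Gimap4*, *Gimap7*, and *Gimap5* are shown because these genes had the 3 kinds of time course described below: *Gimap4* held at 4 h and was low at 20 h, *Gimap7* was low from 4 h, and *Gimap5* was high at 4 h. Each is printed 5′ to 3′ on the plus strand, at chr6:48684328-48684548, chr6:48718371-48718620, and chr6:48745947-48746196, and the last 29 bases of the *Gimap4* window were left out because an annotated exon covers them. Capitals mark matches to the RUNX motif TGTGGT (reverse complement ACCACA) and the NFAT motif TGGAAA (reverse complement TTTCCA):
Gimap4: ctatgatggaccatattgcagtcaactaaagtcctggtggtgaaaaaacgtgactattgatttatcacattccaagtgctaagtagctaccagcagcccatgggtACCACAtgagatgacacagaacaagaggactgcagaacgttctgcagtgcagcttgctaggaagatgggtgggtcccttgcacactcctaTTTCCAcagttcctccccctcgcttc
Gimap7: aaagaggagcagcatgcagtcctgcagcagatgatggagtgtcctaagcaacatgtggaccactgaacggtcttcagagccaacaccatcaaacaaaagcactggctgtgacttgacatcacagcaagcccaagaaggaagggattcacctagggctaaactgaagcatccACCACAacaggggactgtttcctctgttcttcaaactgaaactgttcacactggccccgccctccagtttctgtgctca
Gimap5: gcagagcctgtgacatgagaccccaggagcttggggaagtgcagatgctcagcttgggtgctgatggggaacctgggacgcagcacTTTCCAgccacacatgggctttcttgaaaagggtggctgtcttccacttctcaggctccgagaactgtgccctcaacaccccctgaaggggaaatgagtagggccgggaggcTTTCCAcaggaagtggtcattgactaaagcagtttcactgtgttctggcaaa

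In these windows, counting back from the start site, *Gimap4* has a RUNX match at -145 to -140 and an NFAT match at -55 to -50, *Gimap7* has a RUNX match at -79 to -74, and *Gimap5* has NFAT matches at -164 to -159 and -52 to -47. Over the 8 members, the NFAT motif was found in 5 (*Gimap1*, *Gimap3*, *Gimap4*, *Gimap5*, and *Gimap8*), and it occurs in 18.6% of 32851 promoter windows of the same length. The RUNX motif was found in 3 (*Gimap1*, *Gimap4*, and *Gimap7*; 14.0% of all windows) and the ETS motif CGGAAG in 3 (*Gimap1*, *Gimap6*, and *Gimap8*; 13.6%). The FOXO motif GTAAACA was found in *Gimap3* (3.17%) and the NF-kappaB motif GGANTTCC in *Gimap8* (4.00%), where it overlaps the NFAT match. The matches of *Gimap8* all lie in its second window, and its first has none, whereas the shares of all promoters are per window. No member had TCF7/LEF1 (CTTTGA, 13.8%), KLF (CACACCC, 6.93%), or AP-1 (TGANTCA, 6.75%), with both strands searched for each motif. These are matches of letters in short windows, and genes that rose and genes that fell at 4 h both had NFAT matches.

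**Figure D1:**
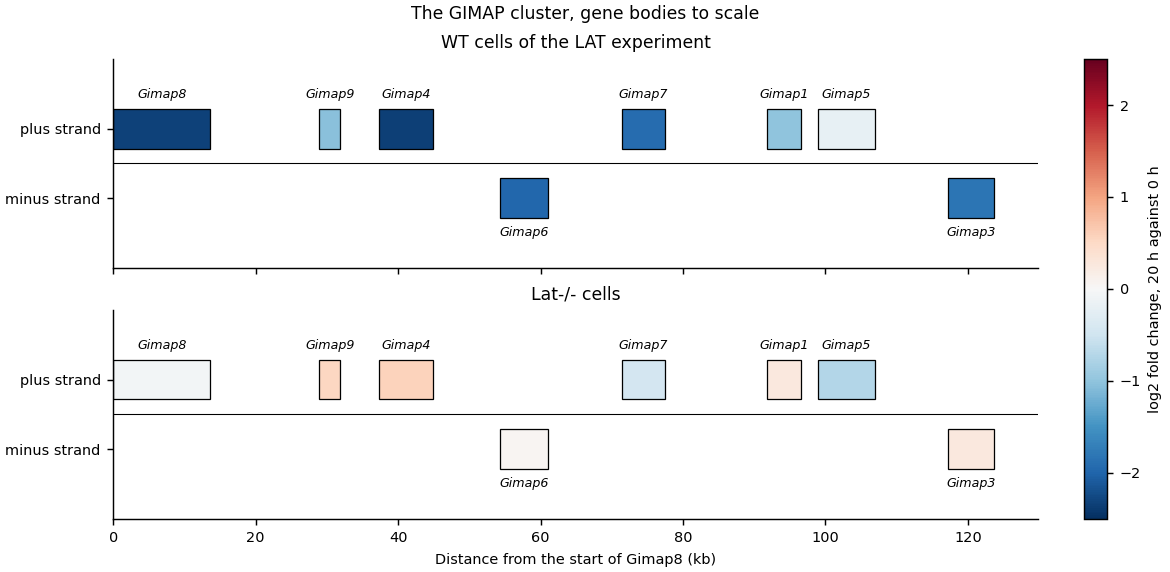
The GIMAP cluster drawn to scale, with the distance from the start of *Gimap8* in kb on the x axis and gene bodies on the plus (upper) or minus (lower) strand. Color gives the log2 fold change from 0 h to 20 h in WT (top) and *Lat*-/- (bottom) cells of the LAT experiment: in WT cells the members range from -2.35 for *Gimap4* to -0.20 for *Gimap5*, and in *Lat*-/- cells from -0.73 for *Gimap5* to 0.58 for *Gimap4*.

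The libraries held 20554354 to 45222554 counts in the CD5/CD6 experiment and 17784644 to 28501095 in the LAT experiment, and 3 counts, the level taken as the floor, correspond to at most 0.169 CPM (counts scaled to a common library size, with TMM factors). In the LAT experiment, *Lat* was at 214 to 292 CPM in WT cells at 0 h and at 11.6 to 19.1 CPM in *Lat*-/- cells. The enriched WT cells of the CD5/CD6 experiment had more *Lat*, at 649 to 792 CPM at 0 h. At 20 h they had 459 to 631 CPM, against 92.2 to 105 CPM in the sorted WT cells. Of the CD5/CD6 libraries at 0 h, library 2 labelled *Cd5*-/- and library 2 labelled *Cd6*-/- went against their labels. The former had 719 CPM of *Cd5* and 329 CPM of *Cd6*, and the latter 172 and 1203 CPM. Libraries 1 and 3 had 105 to 129 and 1084 to 1298 CPM under the *Cd5*-/- label, and 719 to 724 and 251 to 349 CPM under the *Cd6*-/- label. In both genes each library 2 was thus close to libraries 1 and 3 of the other label. The labels were kept, and the members past 2-fold with and without both libraries are given below. Markers of CD4+ T cells summed to 2467 CPM or more in every library. Markers of B cells, which also express GIMAP genes, summed to 1.24 to 538 CPM in the enriched cells and to 0.538 to 4.73 CPM in the sorted cells. Of the endothelial markers, *Cdh5*, *Kdr*, and *Tie1* stayed at or under 2.57, 0.606, and 0.576 CPM, and *Pecam1*, which T cells also express, carried nearly all of the sum, which was 20.5 to 349 CPM. Summed markers reached 499.6 CPM for myeloid cells, 66.8 CPM for NK cells, 125 CPM for γδ T cells, 85.1 CPM for CD8+ T cells, and 91.1 CPM for regulatory T cells.

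In resting WT cells, *Gimap4*, *Gimap3*, and *Gimap6* were the most abundant members per length of transcript, and *Gimap7* and *Gimap5* the least. Levels per length are given as CPM per kb of merged exons, mean ± SD over 3 libraries. In WT cells of the LAT experiment at 0 h, *Gimap4* was at 567 ± 35.4, *Gimap3* at 435 ± 21.4, and *Gimap6* at 334 ± 14.1 CPM per kb. *Gimap9* (182 ± 21.4), *Gimap1* (118 ± 14.0), and *Gimap8* (85.2 ± 21.2) followed on the same scale, and *Gimap7* (39.9 ± 6.39) and *Gimap5* (21.1 ± 0.784) were last. No neighbors in this order overlapped over the 3 libraries. The enriched WT cells of the CD5/CD6 experiment had the same order but for *Gimap8* (95.2 ± 8.11 CPM per kb) and *Gimap1* (92.2 ± 14.8), which overlapped there. *Gimap5*, whose loss causes lymphopenia, was the least abundant in both, at 20.5 to 21.6 CPM per kb in the enriched and 20.3 to 21.8 CPM per kb in the sorted WT cells. With the longest coding transcript as the length, *Gimap1* moved above *Gimap9* with overlapping libraries, *Gimap8* and *Gimap7* overlapped in the LAT experiment, and the first 3 and the last member were the same.

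Stimulation of WT cells was accompanied by a fall of most members by 20 h, and the fall was seen in both experiments. In the following, a member is said to have fallen or risen past 2-fold when its fold change was over 2 with an adjusted p under 0.05 (edgeR's quasi-likelihood test, adjusted over all genes). At 20 h against 0 h, 5 of 8 members were lower past 2-fold in the enriched WT cells (*Gimap3*, *Gimap4*, *Gimap6*, *Gimap7*, and *Gimap8*), where 17.3% of all genes tested were lower. In the sorted WT cells 6 of 8 were lower, the same 5 and *Gimap9*, where 12.7% of all genes tested were. Of the better expressed genes, those with 50 or more counts on average, 24.4% of 10792 were lower in the enriched and 20.7% of 10151 in the sorted cells. The median log2 fold change of the 8 members was -1.73 in the enriched and -1.87 in the sorted cells, beside 0.06 and -0.02 over the better expressed genes. Since these are bulk samples, fewer cells expressing a gene and less RNA per cell cannot be told apart, and CPM measures a share of the library.

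*Gimap4* held its level at 4 h and was low at 20 h. The 3 libraries of sorted WT cells had 995, 1115, and 1013 CPM at 0 h, 906, 1022, and 1032 CPM at 4 h, and 203, 229, and 179 CPM at 20 h. The libraries of 0 h and 4 h overlapped, and every library of 20 h was far below both. The log2 fold change was -0.08 ± 0.14 (SE) at 4 h (adjusted p = 0.812) and -2.35 ± 0.15 at 20 h (adjusted p = 5.26e-52), which left 19.6% of the 0 h level. The enriched WT cells went the same way, with 952, 1044, and 984 CPM at 0 h, 788, 902, and 1088 CPM at 4 h, and 193, 211, and 258 CPM at 20 h, a log2 fold change of -2.17 ± 0.16 at 20 h (adjusted p = 2.67e-20).

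*Gimap3* and *Gimap6* fell with it. *Gimap3* had 1057, 1160.1, and 1144 CPM at 0 h, 708, 700.1, and 1059 CPM at 4 h, and 311, 336, and 305 CPM at 20 h in the sorted WT cells. *Gimap6* had 1118, 1217, and 1172 CPM, 952, 918, and 1250.3 CPM, and 297, 305, and 284 CPM at the same times. For both genes the 20 h libraries lay below all others, and at 4 h library 3 lay above libraries 1 and 2. The log2 fold change at 20 h was -1.82 ± 0.15 for *Gimap3* (adjusted p = 1.49e-32). That of *Gimap6*, whose product binds an autophagy protein, was -1.98 ± 0.15 (adjusted p = 3.12e-38). In the enriched WT cells the log2 fold changes at 20 h were -1.85 ± 0.16 and -1.92 ± 0.14, and those at 4 h, -0.45 ± 0.15 (adjusted p = 0.0165) and -0.49 ± 0.14 (adjusted p = 0.00387), were below 2-fold.

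*Gimap7* and *Gimap8* fell earlier. *Gimap7*, a GTPase that acts as a dimer, had 60.4, 75.9, and 80.9 CPM at 0 h, 15.6, 19.7, and 20.9 CPM at 4 h, and 21.8, 21.8, and 27.7 CPM at 20 h in the enriched WT cells. All of its fall was present at 4 h, with a log2 fold change of -1.95 ± 0.18 (adjusted p = 1.27e-15), and the change from 4 h to 20 h was 0.34 ± 0.17 (adjusted p = 0.144). Sorted WT cells had 79.2, 109, and 90.7 CPM of *Gimap7* at 0 h, 25.0, 24.6, and 52.7 CPM at 4 h, and 26.7, 25.7, and 21.1 CPM at 20 h. Library 3 of 4 h lay between the 0 h libraries and the other 4 h libraries. The log2 fold change at 4 h was -1.44 ± 0.16 (adjusted p = 1.29e-18) with that library and -1.94 (adjusted p = 8.61e-27) without it, and the change from 4 h to 20 h was -0.48 ± 0.16 with it and 0.01 without it.

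*Gimap8* had 336, 387, and 334 CPM at 0 h, 138, 199, and 178 CPM at 4 h, and 61.5, 62.8, and 69.0 CPM at 20 h in the enriched WT cells, with no overlap between the times. It was lower past 2-fold at 4 h (-1.04 ± 0.17, adjusted p = 4.33e-07) and had the lowest log2 fold change of the members in these cells at 20 h (-2.45 ± 0.18, adjusted p = 1.83e-20). The values in sorted WT cells were 355, 225, and 366 CPM at 0 h, 146, 162, and 205 CPM at 4 h, and 65.2, 64.4, and 58.7 CPM at 20 h, and library 2 of 0 h stood below the other 2. The log2 fold change at 4 h was -0.89 ± 0.15, short of 2-fold, and it passed 2-fold without that library (-1.08, adjusted p = 3.26e-13) and also without library 3 of 4 h (-1.06, adjusted p = 1.94e-10). The count of members lower past 2-fold at 4 h was therefore 2 in the enriched cells (*Gimap7* and *Gimap8*, beside 11.1% of all genes) and 1 there without replicate 1, where *Gimap8* was at -0.94 (-0.98 with the compared groups alone), and in the sorted cells 1 with all libraries (*Gimap7*, beside 9.29% of all genes) and 2 without either library.

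Library 3 of the sorted WT cells at 4 h was the highest of its group in the 7 other members and the lowest in *Gimap5*. It also had 607 CPM of *Klf2*, a transcription factor of quiescence, against 198 and 192 CPM in the others, and 1399.6 CPM of the activation marker *Cd69* against 1728 and 1738 CPM. The part of these markers in its GIMAP levels was not tested.

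*Gimap1* and *Gimap9* fell less. *Gimap1*, which mature lymphocytes need to survive, had 336, 412, and 339.7 CPM at 0 h, 259, 251, and 304 CPM at 4 h, and 177, 189, and 179 CPM at 20 h in the sorted WT cells. *Gimap9* had 276, 339, and 280.4 CPM, 176, 172, and 256 CPM, and 139, 149, and 147 CPM at the same times. The 20 h libraries of both genes lay below all 0 h and 4 h libraries. At 20 h the log2 fold change of *Gimap1* was -0.997 ± 0.149 (adjusted p = 1.61e-10), just short of 2-fold, and that of *Gimap9* was -1.04 ± 0.15 (adjusted p = 2.46e-11), just past it, and -0.94 without library 2 of 0 h. The corresponding log2 fold changes in the enriched WT cells, -0.78 ± 0.15 and -0.71 ± 0.16, passed the adjusted p (8.22e-06 and 0.000136) but not 2-fold.

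*Gimap5* was the exception. In the enriched WT cells it had 89.8, 87.3, and 85.1 CPM at 0 h, 157, 147, and 155 CPM at 4 h, and 63.6, 74.8, and 89.1 CPM at 20 h. The sorted WT cells had 87.4, 84.2, and 90.7 CPM of *Gimap5* at 0 h, 166, 157, and 135 CPM at 4 h, and 71.6, 76.0, and 81.2 CPM at 20 h. In both experiments every 4 h library lay above every 0 h library. The other 7 members had estimates below 0 at 4 h, and *Gimap5* rose by 0.81 ± 0.15 on the log2 scale (adjusted p = 8.94e-06) in the enriched and 0.80 ± 0.15 (adjusted p = 1.11e-06) in the sorted cells, below 2-fold in both. By 20 h it was back near the 0 h level, with log2 fold changes of -0.21 ± 0.15 (adjusted p = 0.338) and -0.20 ± 0.15 (adjusted p = 0.374). Reads from the run that *Gimap5* has in common with *Gimap3* could fall to either gene, and *Gimap3* went down while *Gimap5* went up at 4 h.

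**Figure D2:**
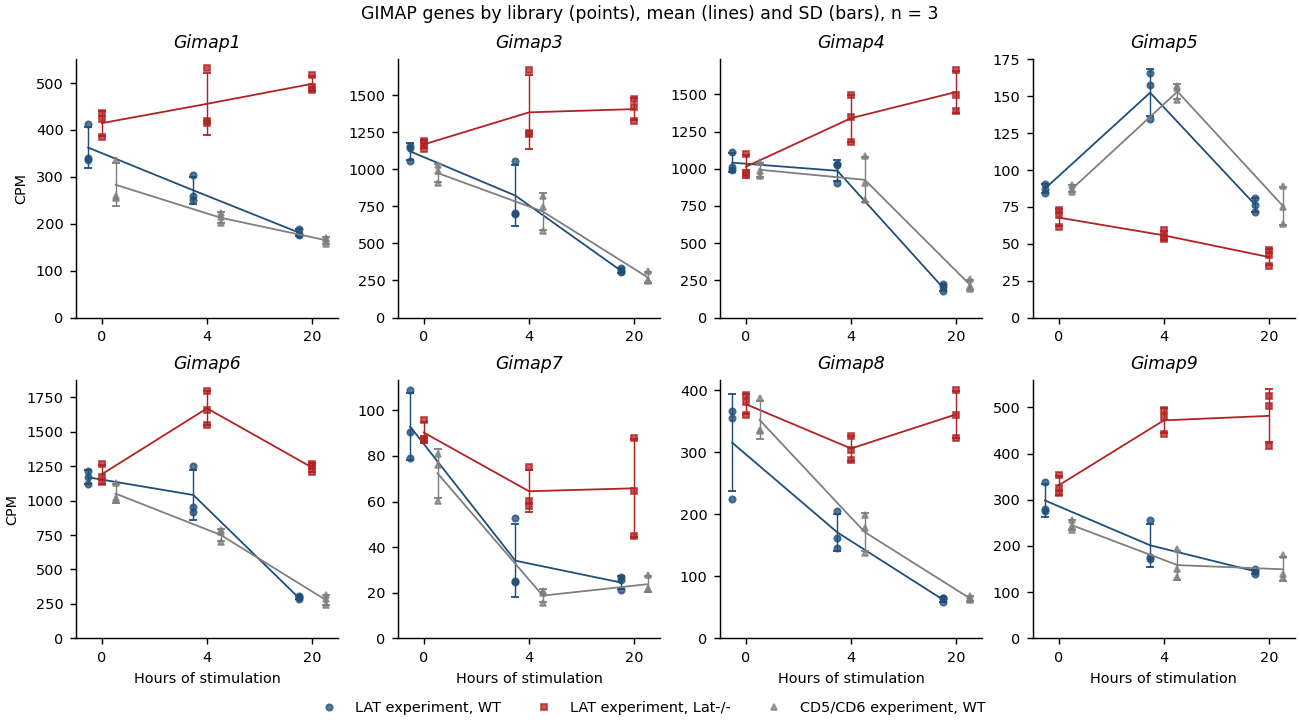
CPM of each GIMAP gene (y axis, one panel per gene, from 0) against hours of stimulation (x axis, equally spaced) in WT cells of both experiments and in *Lat*-/- cells. Points are libraries, lines join means, and bars are the SD over 3 libraries. In WT cells *Gimap4* drops between 4 h and 20 h, *Gimap7* before 4 h, and *Gimap5* peaks at 4 h, while the *Lat*-/- libraries of *Gimap4* at 20 h sit at 1388 to 1663 CPM, above the WT range of 179 to 229 CPM.

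Between 4 h and 20 h, the members lower past 2-fold were *Gimap3*, *Gimap4*, *Gimap6*, and *Gimap8* in the sorted WT cells (4 of 8, beside 9.32% of all genes) and the same 4 with *Gimap5* in the enriched WT cells (5 of 8, beside 12.2%). *Gimap4* had the lowest log2 fold change in this interval in both, -2.28 ± 0.15 and -2.07 ± 0.16. *Gimap5* was at -0.999 ± 0.154 in the sorted and -1.02 ± 0.15 in the enriched cells, on either side of 2-fold, and at -1.06 in the sorted cells without library 3 of 4 h.

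Several summed markers of other cells, and of T cells, were also lower in WT cells after stimulation. In the enriched WT cells, B cell markers summed to 96.5 to 538 CPM at 0 h and 1.80 to 3.27 CPM at 20 h. NK cell markers there summed to 31.3 to 41.8 and 0.310 to 1.40 CPM, γδ T cell markers to 35.1 to 37.9 and 4.497 to 6.60 CPM, and CD4+ T cell markers to 4751 to 5564 and 2660.0 to 2775 CPM. In the sorted WT cells B cell markers were low at both times, at 2.98 to 4.73 and 3.00 to 3.91 CPM, as were NK cell markers at 20 h (15.2 to 22.0 CPM at 0 h and 0.398 to 1.03 CPM at 20 h). The sums at 0 h and 20 h in the sorted WT cells were 31.1 to 44.7 and 5.86 to 6.71 CPM for γδ T cells, 30.3 to 35.0 and 12.4 to 13.8 CPM for CD8+ T cells, 60.6 to 91.1 and 34.5 to 36.9 CPM for regulatory T cells, 5294 to 6799 and 2652 to 3051 CPM for CD4+ T cells, 230.5 to 279 and 33.9 to 50.7 CPM for endothelial cells (mostly *Pecam1*, which T cells also express), and 63.3 to 123 and 68.5 to 70.2 CPM for myeloid cells, whose ranges overlap. In *Lat*-/- cells the sums at the same times were 19.7 to 25.8 and 50.0 to 66.8 CPM for NK cells (mostly *Klrd1*, with *Ncr1* and *Klrb1c* at most 1.76 and 3.02 CPM in any library of the LAT experiment), 255 to 267 and 302 to 349 CPM for endothelial cells, 14.4 to 16.4 and 8.14 to 10.7 CPM for γδ T cells, and 5309 to 6478 and 4342 to 4765 CPM for CD4+ T cells. Regulatory T cell markers in *Lat*-/- cells summed to 19.5 to 34.8 and 4.53 to 10.6 CPM, under the sorted WT range at both times. CD8+ T cell markers there summed to 32.6 to 35.7 and 19.5 to 27.5 CPM, and myeloid markers to 72.2 to 86.0 and 67.2 to 93.5 CPM. B cell markers were at 1.43 to 2.56 and 1.48 to 1.67 CPM. Over the libraries of the LAT experiment, the CD8+ sum was mostly *Cd8b1* (10.4 to 35.7 CPM), with *Cd8a* at most 2.03 CPM. The myeloid sum there was mostly *Cst3* (60.3 to 120 CPM). *Lyz2*, *Csf1r*, *Itgam*, and *Cd14* were at most 0.792, 0.210, 2.81, and 0.113 CPM. The log2 fold change of *Gimap4* at 20 h was -2.35 in the sorted and -2.17 in the enriched WT cells, and the difference between the experiments, which were fitted apart, was not tested. The part of other cells in the fall was not tested.

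In *Lat*-/- cells given the same stimulus, no member fell past 2-fold. LAT is the adaptor that carries the signal of the T cell receptor to the calcium and Ras pathways, and these cells lack it. No member passed the thresholds at 4 h against 0 h, 20 h against 0 h, or 20 h against 4 h (0 of 8 in each, by edgeR and by DESeq2), where 6.70%, 4.21%, and 4.10% of all genes tested changed in either direction. By adjusted p alone, 4, 4, and 2 members changed, and at an unadjusted p under 0.05, 5, 4, and 2. The shares of all genes above hold for the stricter thresholds, and none is given for these looser ones. At 20 h against 0 h, *Gimap4* and *Gimap9* rose and *Gimap5* and *Gimap7* fell by adjusted p, all below 2-fold.

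The 3 *Lat*-/- libraries had 968, 1102, and 971 CPM of *Gimap4* at 0 h, 1345, 1181, and 1495 CPM at 4 h, and 1663, 1388, and 1499 CPM at 20 h. Every stimulated library was above every 0 h library, with a log2 fold change of 0.58 ± 0.15 at 20 h (adjusted p = 0.00123). *Gimap9* behaved alike, with 314, 354, and 325 CPM at 0 h and 504, 417, and 524 CPM at 20 h (0.54 ± 0.15, adjusted p = 0.00396). *Gimap6* rose at 4 h, from 1172, 1132, and 1269 CPM to 1551, 1798, and 1659.5 CPM (0.49 ± 0.15, adjusted p = 0.00723), and had 1248, 1204, and 1265 CPM at 20 h. *Gimap3* had 1137, 1174, and 1191 CPM at 0 h and 1470.3, 1325, and 1421 CPM at 20 h, all above the 0 h libraries, with a log2 fold change of 0.27 ± 0.14 that missed the threshold (adjusted p = 0.314).

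*Gimap1* had 436, 423, and 385 CPM at 0 h and 493, 517, and 486 CPM at 20 h in *Lat*-/- cells (0.27 ± 0.15, adjusted p = 0.332). *Gimap8* had 360.4, 380.5, and 392 CPM and 399.6, 361, and 323 CPM, overlapping groups (-0.06 ± 0.15, adjusted p = 0.985). The libraries of *Gimap7* spread widely at 20 h, with 64.5, 45.0, and 87.9 CPM against 87.6, 87.4, and 95.7 CPM at 0 h (-0.46 ± 0.15, adjusted p = 0.0329). *Gimap5* went down without a peak at 4 h: the libraries had 69.3, 61.4, and 72.6 CPM at 0 h, 54.6, 53.4, and 59.2 CPM at 4 h, and 42.5, 34.9, and 45.6 CPM at 20 h, with no overlap between the times. Its log2 fold change at 20 h was -0.73 ± 0.15 (adjusted p = 7.19e-05).

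**Figure D3:**
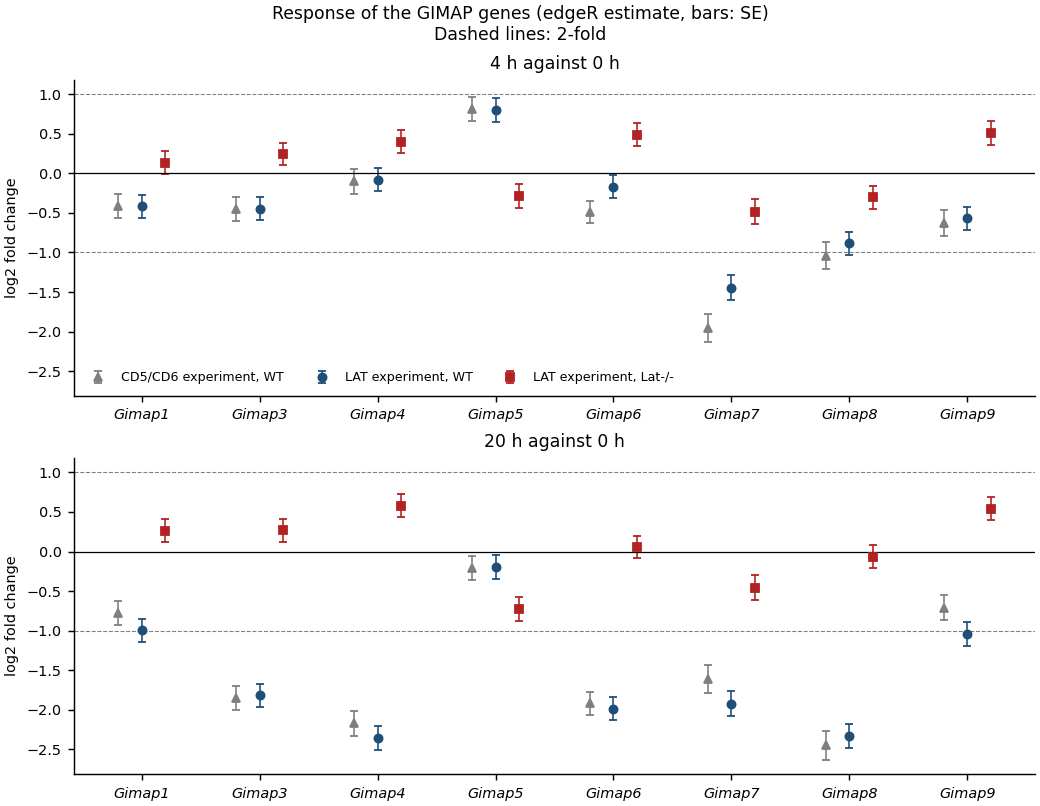
Log2 fold change of each GIMAP gene (y axis) at 4 h (top) and 20 h (bottom) against 0 h, in enriched WT cells (triangles, CD5/CD6 experiment), sorted WT cells (circles, LAT experiment), and *Lat*-/- cells (squares). Points are edgeR estimates, bars their SE, and dashed lines mark 2-fold. At 20 h all members but *Gimap5* lie lower in both WT groups than in *Lat*-/- cells, and at 4 h *Gimap5* is the only member above 0 in WT cells.

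Before stimulation, *Lat*-/- and WT cells did not differ past the thresholds in any member (0 of 8 by edgeR and DESeq2, beside 0.961% of all genes). At an unadjusted p under 0.05, for which no share of all genes is given, 1 of 8 did. *Gimap5* had 69.3, 61.4, and 72.6 CPM in *Lat*-/- and 87.4, 84.2, and 90.7 CPM in WT cells, groups that did not overlap, with a log2 difference of -0.37 ± 0.15 (adjusted p = 0.471).

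At 4 h, *Gimap9* was higher past 2-fold in *Lat*-/- cells (1 of 8, beside 5.51% of all genes) and *Gimap5* lower (1 of 8, beside 6.23%). *Gimap9* had 479.6, 442, and 494 CPM in *Lat*-/- against 176, 172, and 256 CPM in WT cells (1.23 ± 0.15, adjusted p = 6e-15). *Gimap5* had 54.6, 53.4, and 59.2 CPM against 166, 157, and 135 CPM (-1.45 ± 0.16, adjusted p = 4.31e-19), so that the *Lat*-/- cells held 36.6% of the WT level. The other 6 members were higher by adjusted p, by log2 differences of 0.44 (*Gimap4*) to 0.92 (*Gimap7*). Without library 3 of WT cells at 4 h, *Gimap7* (1.40, adjusted p = 8.34e-15) and *Gimap8* (1.01, adjusted p = 1.7e-09) also passed 2-fold.

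At 20 h, 7 of 8 members were higher past 2-fold in *Lat*-/- than in WT cells, where 12.1% of all genes tested were higher. The log2 differences were 2.90 ± 0.16 for *Gimap4*, 2.52 ± 0.16 for *Gimap8*, 2.15 ± 0.15 for *Gimap3*, and 2.07 ± 0.15 for *Gimap6* (highest adjusted p of the 4 = 2.48e-41). *Gimap9* (1.73 ± 0.15), *Gimap1* (1.46 ± 0.15), and *Gimap7* (1.42 ± 0.16) followed. *Gimap5* alone was lower, with 42.5, 34.9, and 45.6 CPM against 71.6, 76.0, and 81.2 CPM in WT cells, a log2 difference of -0.90 ± 0.15 that passed the adjusted p (4.09e-08) but not 2-fold. Over the members the median log2 difference was 1.90, beside -0.0012 over the better expressed genes.

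The difference between the responses of the genotypes was tested as an interaction. At 20 h, 7 members passed 2-fold, all with a higher response in *Lat*-/- cells, beside 10.1% of all genes higher. The interaction was 2.94 ± 0.21 for *Gimap4* (adjusted p = 2.09e-42), 2.27 ± 0.21 for *Gimap8*, 2.09 ± 0.21 for *Gimap3*, and 2.04 ± 0.21 for *Gimap6*. It was 1.58 ± 0.21 for *Gimap9*, 1.47 ± 0.22 for *Gimap7*, and 1.26 ± 0.21 for *Gimap1* (adjusted p = 1.74e-08, the highest of the 7). That of *Gimap5* was -0.53 ± 0.22 (adjusted p = 0.0542). At 4 h, *Gimap9* (1.08 ± 0.21, adjusted p = 5.6e-06) and *Gimap5* (-1.08 ± 0.22, adjusted p = 1.13e-05) passed 2-fold in opposite directions, as 2 of 8 beside 8.71% of all genes. Without library 2 of WT cells at 0 h that of *Gimap9* was 0.98, short of 2-fold, and without library 3 of WT cells at 4 h that of *Gimap7* was 1.44 in place of 0.96.

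In cells without CD5, CD6, or both, the same 5 members fell by 20 h as in the enriched WT cells. At 20 h against 0 h, *Gimap3*, *Gimap4*, *Gimap6*, *Gimap7*, and *Gimap8* were lower past 2-fold in each of *Cd5*-/- (17.5% of all genes), *Cd6*-/- (16.8%), and *Cd5*-/-*Cd6*-/- cells (18.0%), as 5 of 8 members. *Gimap4* fell to 228 to 266, 251 to 266, and 236 to 279 CPM in the 3 genotypes, beside 193 to 258 CPM in WT cells. At 4 h against 0 h, *Gimap7* was lower past 2-fold in each knockout, 1 of 8 members beside 11.3%, 10.2%, and 9.66% of all genes, with log2 fold changes of -1.73 ± 0.18, -1.56 ± 0.18, and -1.35 ± 0.17. In *Cd5*-/- cells the count was 2 whichever replicate was left out, the other member past 2-fold being *Gimap5*, higher without replicates 1 and 3 (1.02 and 1.01), or *Gimap8*, lower without replicate 2 (-1.08). *Gimap5* rose at 4 h in each as well, by 0.98 ± 0.15, 0.77 ± 0.15, and 0.79 ± 0.15 on the log2 scale, below 2-fold with adjusted p of 1.51e-07, 2.73e-05, and 1.78e-05. From 4 h to 20 h, 5, 4, and 4 members were lower past 2-fold (12.5%, 12.5%, and 13.4% of all genes), the 4 being *Gimap3*, *Gimap4*, *Gimap6*, and *Gimap8* and the fifth *Gimap5*.

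Levels in the knockouts are given as mean ± SD over 3 libraries, in the order *Cd5*-/-, *Cd6*-/-, and *Cd5*-/-*Cd6*-/-, for the members other than *Gimap7*. Those at 0 h include both libraries that went against their labels. *Gimap4* was at 1049 ± 60.4, 949.8 ± 129.8, and 975 ± 146 CPM at 0 h, 1074 ± 104, 1086 ± 192, and 1207 ± 142 CPM at 4 h, and 252 ± 20.6, 257 ± 7.87, and 252 ± 23.0 CPM at 20 h. *Gimap3* had 986 ± 77.4, 991 ± 7.56, and 919 ± 131 CPM at 0 h, 747 ± 84.0, 864 ± 148, and 867 ± 120.5 CPM at 4 h, and 268 ± 12.3, 319.6 ± 19.1, and 281 ± 8.49 CPM at 20 h. The levels of *Gimap6* were 1083 ± 68.0, 1012 ± 47.6, and 1011 ± 32.4 CPM at 0 h, 803 ± 6.47, 879 ± 64.7, and 877 ± 67.0 CPM at 4 h, and 280.5 ± 25.9, 309.8 ± 23.1, and 293 ± 13.0 CPM at 20 h. For these 3 abundant members every 20 h mean was under every 0 h and 4 h mean. *Gimap8*, the member with more than a single GTPase domain, had 348 ± 12.6, 308 ± 80.2, and 332 ± 35.3 CPM at 0 h, 179 ± 32.6, 209 ± 48.7, and 212 ± 44.6 CPM at 4 h, and 70.0 ± 9.25, 76.3 ± 1.10, and 72.0 ± 5.23 CPM at 20 h. *Gimap9* was at 253 ± 13.8, 251 ± 18.1, and 241 ± 30.6 CPM at 0 h, 164 ± 16.6, 191 ± 41.3, and 201 ± 28.8 CPM at 4 h, and 155 ± 17.2, 155 ± 18.7, and 155 ± 11.4 CPM at 20 h. The survival gene *Gimap1* was at 290.4 ± 38.8, 314 ± 67.6, and 269 ± 33.9 CPM at 0 h, 220.3 ± 9.39, 220.2 ± 11.3, and 226 ± 12.6 CPM at 4 h, and 174 ± 8.34, 157 ± 3.65, and 163 ± 5.49 CPM at 20 h. In each genotype *Gimap5* had its highest mean at 4 h. It was at 89.6 ± 7.78, 90.3 ± 7.98, and 94.1 ± 6.04 CPM at 0 h, 176 ± 9.06, 154 ± 16.1, and 162 ± 13.6 CPM at 4 h, and 83.3 ± 8.95, 83.0 ± 11.3, and 84.6 ± 15.1 CPM at 20 h.

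Set against WT cells at the same time, no member passed the thresholds in any of the 3 knockouts, in 72 tests by edgeR and as many by DESeq2. The background was low in these comparisons: 0.0619%, 0.0743%, and 0.0186% of all genes differed in either direction in *Cd5*-/- cells at 0, 4, and 20 h, 0%, 0.00310%, and 0.0186% in *Cd6*-/- cells, and 0.0248%, 0.0434%, and 0.0434% in the double mutant. At an unadjusted p under 0.05, 4 of the 72 tests passed, 3 in the double mutant and 1 in *Cd6*-/- cells, all at 4 h. No share of all genes at the unadjusted p is given, here or for the responses below, so these counts are not read further. The lowest adjusted p was 0.284, for *Gimap7* in the double mutant at 4 h, with 22.6, 32.3, and 34.9 CPM against 15.6, 19.7, and 20.9 CPM in WT cells and a log2 difference of 0.68 ± 0.17. *Gimap7* in *Cd6*-/- cells at 4 h (21.8, 31.4, and 30.2 CPM) was at 0.57 ± 0.17 (adjusted p = 0.805), and in *Cd5*-/- cells (19.6, 24.5, and 25.4 CPM) at 0.31 ± 0.17 (adjusted p = 1).

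At 4 h the estimate of all 8 members lay above WT in each of the 3 knockouts, by 0.05 to 0.31 in *Cd5*-/-, 0.003 to 0.57 in *Cd6*-/-, and 0.08 to 0.68 in *Cd5*-/-*Cd6*-/- cells on the log2 scale, and these comparisons share the 3 WT libraries. The difference of the responses from WT passed the thresholds for no member in 48 tests by edgeR or DESeq2 (0.00310% and 0.00310% of all genes in *Cd5*-/- at 4 and 20 h, 0% and 0.00310% in *Cd6*-/-, and 0% and 0% in the double mutant), and 2 of the 48 had an unadjusted p under 0.05. The SE of a difference from WT was 0.139 to 0.174 on the log2 scale, and a test that misses the thresholds does not show that the genotypes were alike. Leaving out both 0 h libraries that went against their labels, the members past 2-fold were the same in these comparisons, except that *Gimap1* passed 2-fold in *Cd6*-/- cells at 20 h against 0 h (-1.11, and at the 2-fold line with them). Library 3 labelled *Cd6*-/- at 0 h stood apart in *Gimap8* (346, 363, and 216 CPM). Without it the log2 difference of *Gimap8* from WT was 0.01 in place of -0.19.

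**Figure D4:**
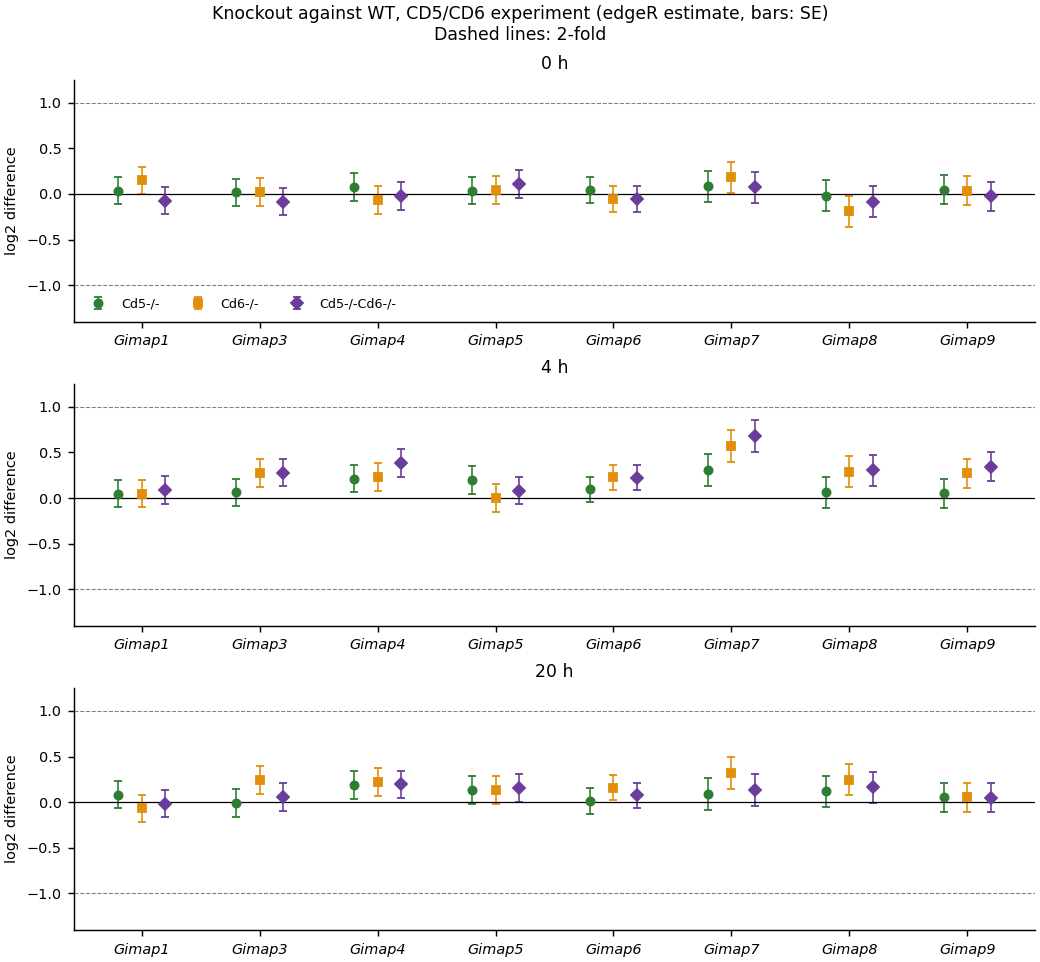
Log2 difference from WT cells (y axis) of each GIMAP gene in *Cd5*-/- (circles), *Cd6*-/- (squares), and *Cd5*-/-*Cd6*-/- (diamonds) cells at 0 h, 4 h, and 20 h. Points are edgeR estimates, bars their SE, and dashed lines mark 2-fold. No point passes the dashed lines, and the highest is *Gimap7* in the double mutant at 4 h, at 0.68.

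Summed over the 8 members, the level per length in WT cells at 20 h was 30.8% ± 4.24 of its resting mean in the enriched and 28.7% ± 2.06 in the sorted cells (SD, n = 3). In the enriched WT cells the sums were 1521, 1666, and 1638 CPM per kb at 0 h, 1086, 1257, and 1416 CPM per kb at 4 h, and 448, 469, and 568 CPM per kb at 20 h. In the sorted cells they were 1699.9, 1874, and 1772, then 1322, 1369.7, and 1695, then 505, 542, and 489 CPM per kb. The *Lat*-/- sums were 1789, 1888, and 1841 CPM per kb at 0 h, 2202, 2199, and 2509 CPM per kb at 4 h, and 2446, 2161, and 2343 CPM per kb at 20 h, or 126% ± 8.55 of the 0 h mean. The 20 h groups of the 2 genotypes did not overlap. In *Cd5*-/-, *Cd6*-/-, and *Cd5*-/-*Cd6*-/- cells the sum at 20 h was 31.5% ± 2.67, 34.8% ± 2.64, and 34.0% ± 4.08 of that at 0 h.

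The makeup of the sum differed between the times as well. *Gimap4* made up 31.8% ± 0.63 of the summed level per length in the sorted WT cells at 0 h, 37.0% ± 3.8 at 4 h, and 21.6% ± 1.6 at 20 h. *Gimap3*, with 24.4% ± 0.56 at 0 h and 24.1% ± 0.14 at 20 h, had the highest mean share at 20 h. The share of *Gimap9* went from 10.2% ± 0.74 to 17.3% ± 0.86, that of *Gimap1* from 6.61% ± 0.49 to 11.5% ± 0.29, and that of *Gimap5* from 1.18% ± 0.089 to 3.60% ± 0.35. In *Lat*-/- cells the share of *Gimap4* was 30.0% ± 1.6 at 0 h and 35.6% ± 1.2 at 20 h, and that of *Gimap5* 0.890% ± 0.092 and 0.426% ± 0.040. The shares are parts of 1 whole and were not tested.

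**Figure D5:**
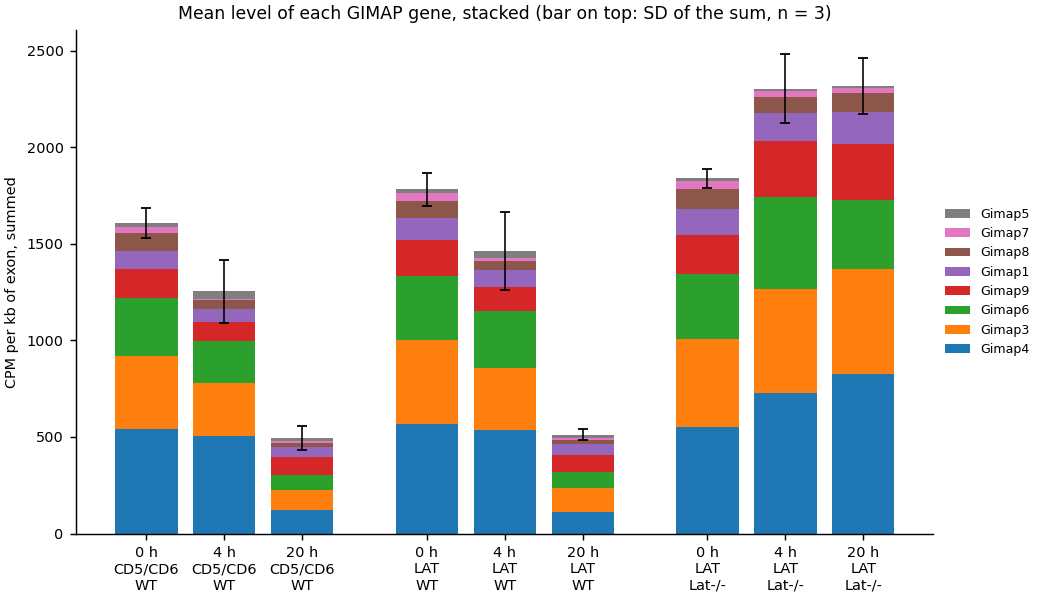
Mean level of each GIMAP gene in CPM per kb of merged exons, stacked (y axis, from 0), at 0, 4, and 20 h in WT cells of both experiments and in *Lat*-/- cells. Bars on top give the SD of the sum over 3 libraries. The stack shrinks to 512 CPM per kb at 20 h in sorted WT cells. In *Lat*-/- cells it goes from 1839 CPM per kb at 0 h to 2317 CPM per kb at 20 h.

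Genes of the naive state moved in the same directions as most members. Of 14 genes that maintain or mark quiescent naive T cells, 12 were lower past 2-fold at 20 h in the sorted WT cells (median log2 fold change -2.01 over the 14) and 12 in the enriched WT cells (median -2.71). Of all genes tested, 12.7% and 17.3% were lower in these cells. Among them were *Klf2* (-3.78 in the sorted cells) and *Il7r*, the receptor chain for the survival cytokine IL-7 (-4.63). In *Lat*-/- cells none of the 14 was lower at 20 h and 3 were higher (*Il7r*, *S1pr1*, and *Bach2*, median of the 14 0.60), beside 4.21% of all genes in either direction. At 20 h, 12 of the 14 were higher than in WT cells (median 2.83), beside 12.1% of all genes. Of 9 activation genes, 9 were higher at 20 h in the sorted and 7 in the enriched WT cells, where 10.8% and 12.3% of all genes were higher. In *Lat*-/- cells 4 were higher (*Il2*, *Irf4*, *Nr4a1*, and *Tnfrsf9*) and 1 lower (*Cd69*), beside 4.21% of all genes in either direction, with *Il2* at 7.21 beside 8.50 in sorted WT cells. All 9 were lower than in WT cells at 20 h (median log2 difference -3.53, beside 12.3% of all genes), 5 of the 9 were already lower at 0 h (median -1.39, beside 0.814%), and the response at 20 h was lower for 6 of the 9 (beside 9.35%).

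Genes of GIMAP partners and of cell survival did not share 1 direction. Of 12 such genes, 1 was higher and 2 lower past 2-fold at 20 h in the sorted WT cells, and 2 and 4 in the enriched WT cells, so that the share lower in the sorted cells was near that of all genes given above. *Bcl2l1*, which encodes the survival protein BCL-XL, rose in both (4.15 ± 0.17 and 3.90 ± 0.17) and not in *Lat*-/- cells (0.06 ± 0.15, adjusted p = 1). *Bcl2*, the survival gene of resting T cells, fell in all 3 groups (-1.21 ± 0.15, -1.75 ± 0.21, and -1.26 ± 0.15 in *Lat*-/- cells). *Bbc3*, which encodes the death-promoting protein PUMA, fell in WT cells (-1.11 ± 0.17 and -1.605 ± 0.194) and rose in *Lat*-/- cells (1.77 ± 0.17), and *Bcl2l11*, which encodes BIM, also rose there (1.12 ± 0.15). *Gabarapl2*, whose product binds GIMAP6, did not pass 2-fold in WT cells (-0.66 ± 0.20 and -0.35 ± 0.20). In the enriched cells *Bax* rose (1.34 ± 0.17) and *Gsk3b* (-1.20 ± 0.19) and *Mcl1* (-1.14 ± 0.15) fell past 2-fold.

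Around the cluster, 44 other annotated genes lie within 300 kb, of which 11 had a mean of at least 50 counts in both experiments. At 20 h against 0 h, 6 of the 11 were lower and 2 higher past 2-fold in WT cells of each experiment, with a median log2 fold change of -1.28 in the enriched and -1.15 in the sorted cells. Of all genes tested, 17.3% were lower and 12.3% higher in the enriched cells, and 12.7% and 10.8% in the sorted cells. The shares lower among the better expressed genes are given above. The 3 that lie inside the cluster were lower at 20 h too: *Gm28053*, the readthrough gene (-1.28 and -1.31), *Gimap1os* (-1.43 and -1.49), and *4833403J16Rik*, a long noncoding RNA between *Gimap5* and *Gimap3* (-1.67 and -1.95). At 4 h none of them passed the thresholds. *Gm28053* was then at 0.69 in both WT groups, *Gimap1os* at -0.66 and -0.39, and *4833403J16Rik* at 0.38 and -0.20. *Gm28053* and *Gimap1os* share exonic bases with members. The rest of the lower genes lie outside the cluster, 63.0 to 227 kb away. Their log2 fold changes were -3.91 to -2.08 in the enriched and -2.10 to -1.15 in the sorted cells. Among the nearest genes outside, *AI854703*, at 13.5 kb, was at 0.41 and -0.09, *Zfp775*, at 24.0 kb, at -0.88 and -0.82, both short of 2-fold, and *Repin1*, at 48.2 kb, was higher past 2-fold at 1.98 and 1.89. In *Lat*-/- cells *Gm28053* (-0.20) and *Gimap1os* (-0.04) did not pass the thresholds at 20 h, and *4833403J16Rik* (-1.09) and *AI854703* (-1.01) were lower.

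Over the 36 libraries of the CD5/CD6 experiment, Pearson's r of log2 CPM was 0.99 between *Gimap3* and *Gimap6* and 0.97 between *Gimap3* and *Gimap4*, and over the 18 libraries of the LAT experiment 0.96 in both cases. The pair *Gimap4* and *Gimap7*, with their late and early falls, had an r of 0.43 and 0.67. With *Gimap5* the r of the other members ran from -0.36 to 0.64 and from -0.68 to -0.21. The points share library and time of stimulation, so these values describe the time course as much as the genes. Outside the family, the profiles most like the mean of the 8 members, ranked in both experiments, included those of *Itm2b* (r = 0.975 and 0.984), *Ifi27*, *Ypel5*, *Ifi209*, *E130307A14Rik*, *Mylip*, and *Trim12a* (0.979 and 0.965). For *Gimap5*, the gene first by the worse of its ranks in the 2 experiments was *Dusp2* (0.961, rank 6, and 0.909, rank 24), a phosphatase gene induced early by antigen receptor signals, and it was the most alike in neither alone.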

How the data were processed

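RNA of 54 samples was measured in 2 experiments, and groups and replicate numbers came from the sample labels. The authors prepared stranded mRNA libraries, sequenced single reads of 50 bases, removed adapters and poor reads with DimerRemover, aligned with STAR against GRCm38, and deposited raw read counts by featureCounts for every gene and sample. The annotation release, the use of strand, and the rule for reads with several matches are not given in the sources used here. Of 55385 identifiers, 55144 matched GENCODE M21, and the columns of all samples were used. The GIMAP genes, the gene lists, and the tests were chosen with earlier results of these data known.

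The software was edgeR 4.0.16 for the tests and DESeq2 1.42.0 as the other tool (with limma 3.58.1 and the package data.table, version 1.17.8), in R 4.3.3. Tables and figures were made in Python 3.11.15 with pandas 2.3.3, numpy 2.4.6, and matplotlib 3.10.9. Each table was fitted apart. A gene entered the fit with 1 or more reads over all libraries (32290 and 27780 genes), following the study's methods, with scaling by TMM. The model had a coefficient for every combination of genotype and time, tested by quasi-likelihood in edgeR, and p-values were adjusted over all genes entered (Benjamini-Hochberg). A call required a fold change over 2 together with an adjusted p under 0.05, as the study did. CPM used library totals times TMM factors. Levels per length used the merged exon length that the deposited tables give for each gene. Depths of 17784644 to 45222554 counts set a floor of 3 counts, for counting error only. The fits were tested on simulated counts with large planted changes between the 0 h and 20 h groups of WT cells. Changes near 2-fold and interactions were not simulated.

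The 8 members were named always, and other genes by fixed lists: genes within 300 kb of the cluster (up to 6 named), partners and survival (12), naive state (14), activation (9), cell type markers, and the 8 most like the members' mean profile in log2 CPM (prior count 2, mean of at least 50 counts), with *Dusp2* as the first for *Gimap5*. 1 gene that this rule names is not reported here. In the CD5/CD6 experiment, same-numbered samples deviated together, with every correlation over 0.1 in 20 of 21 comparisons of 2 groups (0.0373 to 0.771), so the numbers pair them from the data. Alternatives were DESeq2, RLE factors, library totals, filterByExpr (16143 and 13928 genes), compared groups alone, the replicate block, each replicate left out, and adjusted p alone. Fits without the libraries named in the report and the length of the longest coding transcript were added after seeing the data.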

Additional observations from a re-analysis of the deposited data

Results flagged for a closer look

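The response to stimulation differed between *Lat*-/- and WT cells of the LAT experiment in 9 tests of an interaction, given here as the *Lat*-/- log2 fold change minus that of WT cells (edgeR, fold over 2 and adjusted p under 0.05). At 20 h it was 1.26 for *Gimap1*, 2.09 for *Gimap3*, 2.94 for *Gimap4*, 2.04 for *Gimap6*, 1.47 for *Gimap7*, 2.27 for *Gimap8*, and 1.58 for *Gimap9*. At 4 h it was 1.08 for *Gimap9* and -1.08 for *Gimap5*, the latter with the opposite sign. For *Gimap5* at 4 h, the 3 WT libraries rose above every 0 h library and the 3 *Lat*-/- libraries lay below theirs. The *Gimap9* value at 4 h was 0.98 without library 2 of WT cells at 0 h, a library chosen for this after its low *Gimap8* was seen.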

How the results depend on the processing

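Over DESeq2, other scaling, filterByExpr, the compared groups alone, the replicate block, and fits without a replicate or a named library, 351 of 366 counts of members past the thresholds stayed within 1.5 times the count reported, and 1099 of 1172 log2 fold changes of members kept their direction and their side of the thresholds. Counts of 0 that stayed at 0 are among the former. The log2 fold changes are those of members past the thresholds in the reported fit. For the enriched WT cells and the LAT experiment, members past the adjusted p alone were included too. The 20 h results were the most stable of the WT responses: without each replicate, 5 members were lower in the enriched WT cells and 6 to 7 in the sorted ones (5 by DESeq2, without *Gimap9* at -0.99). By adjusted p alone, with no fold asked, the counts at 4 h against 0 h were 7 in enriched WT, 7 in *Cd5*-/-, 4 in *Cd6*-/-, 3 in *Cd5*-/-*Cd6*-/-, 6 in sorted WT, and 4 in *Lat*-/- cells. They were 8 in sorted WT cells at 20 h against 4 h, 4 and 2 in *Lat*-/- cells at 20 h against 0 h and 4 h, 8 for *Lat*-/- against WT cells at 4 h, and 6 for the difference of responses at 4 h. No share of all genes by adjusted p alone is given beside these counts. Results at 4 h near 2-fold moved more. In enriched WT cells the count of 2 was 1 with the compared groups alone and 1 to 2 without each replicate, and the count of 1 in *Cd5*-/- cells was 2 with library totals, 2 with filterByExpr, and 2 without any replicate. In sorted WT cells the count of 1 was 2 with library totals, 1 to 2 without each replicate, and 2 without either library of WT cells named in the report, library 2 of 0 h or library 3 of 4 h. The count of 2 for *Lat*-/- against WT cells at 4 h was 4 without that 4 h library, and the count of 2 for the difference of responses at 4 h was 1 without that 0 h library and 1 to 3 without each replicate. The change of *Gimap7* from 4 h to 20 h in sorted WT cells turned from -0.48 to 0.0093 without library 3 of 4 h, and ranged from -0.71 to 0.11 without each replicate. In other cases the cause was not tested. Library totals moved the median of all genes by -0.231 to 0.196 and RLE factors by at most 0.049, and no member turned direction under either. The replicate block changed no member's call in the CD5/CD6 experiment, where the numbers pair the samples. In the LAT experiment the numbers did not pair the samples throughout (correlations of -0.298 to 0.438, all over 0.1 in 2 of 9 comparisons). The negative correlations were between times. Between *Lat*-/- and WT cells at the same time, every same-numbered correlation was positive. These were 0.307 to 0.438 at 0 h, with means of 0.213 at 4 h and 0.194 at 20 h. The reported fit did not pair the genotypes. The block took *Gimap5* in sorted WT cells at 20 h against 4 h to -1.002 (5 members lower in place of 4). It took the 4 h response difference of *Gimap7* to 1.01 (3 in place of 2). Depth limited no member's value.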
